A study of Mus musculus with 62 samples.

Results

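The C/EBP family was examined at the loci of its 5 members that act in blood or partner with those that do, Cebpa, Cebpb, Cebpd, Cebpe and Cebpg. The data were CUT&Tag profiles of HSPCs, bone marrow cells depleted of lineage-positive cells and enriched for c-Kit, which hold stem and progenitor cells. CUT&Tag directs a transposase to chromatin with an antibody, so that the DNA around the antibody's target is cut, tagged and sequenced. A locus was taken as the gene body with 50 kb on each side on mm10, and a site belonged to it when it shared at least 1 bp with that window. By this rule 630 of 1743368 listed sites in 14 tables fell at the family: 139 at Cebpa, 190 at Cebpb, 94 at Cebpd, 103 at Cebpe and 138 at Cebpg. The start sites of Cebpg and Cebpa lie 62.7 kb apart, so their windows overlap and a site between them was counted at both genes and once in the family.

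WT (Daxx +/+), Daxx-KO (Daxx F/F) and DKO (Daxx F/F Pu.1 F/F) mice of strain C57BL/6 were compared, and all of them, the WT controls included, carried 1 Cre allele (Cre +/-). Libraries were labelled 3, 8 or 24 weeks post induction of the Cre (w.p.i.), and mouse ages at collection are not given in the labels. The labels do not name the Cre line. The inducible lines that the study describes are a Rosa Cre line, induced with tamoxifen, and Mx1Cre, induced with pI:pC, an inducer of interferon. Mx1Cre deletes in all interferon-responsive cells and not only in blood cells. For DKO mice the study describes Mx1Cre. Daxx, the chaperone that deposits the histone variant H3.3, was on a C57BL/6N background while the Cre and Pu.1 lines were C57BL/6J. Each table compared 2 libraries with 2 at 3 and 24 w.p.i., for H3.3, Pu.1, H3K27ac and H3K9me3 and, at 24 w.p.i. only, H3K27me3. At 8 w.p.i. 3 libraries were compared with 3, for H3K9me3 and for H3K27me3. The 8 w.p.i. comparisons share libraries, and within a time point 1 mouse gave libraries for several antibodies, so the comparisons are not independent of each other.

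C/EBP proteins are basic leucine zipper factors that bind DNA as dimers and, together with Pu.1, set up the granulocyte and monocyte programme. C/EBP-alpha is needed for the step from common myeloid to granulocyte-monocyte progenitors, C/EBP-beta acts in emergency granulopoiesis, C/EBP-delta is an inflammatory and granulocyte factor, C/EBP-epsilon is needed for late granulocyte maturation, and C/EBP-gamma is a short partner without a transactivation domain. H3K27ac marks active promoters and enhancers, H3K27me3 is the mark of Polycomb repression, which favours CG-rich promoters, and H3K9me3 marks heterochromatin. A distal enhancer about 37 kb downstream of the Cebpa start, hereafter the +37 kb enhancer, is known to drive Cebpa in haematopoietic cells.

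Values are normalized counts, the reads of a library in a site divided by its normalization constant, as deposited. A site was called gained where every library of the first group lay above every library of the second, lost where every one lay below, and overlapping otherwise. The log2 ratio is that of the group averages with 1 normalized count added. The tables list only sites that had passed the authors' window test on the same libraries, so every comparison is a description and no p-value was computed. An exact permutation of libraries could not go below 0.333 for 2 against 2 or 0.100 for 3 against 3. Depth, as mean reads per window, was 1.21 to 33.78 in the 3-week libraries, 0.2 to 3.29 in the 8-week ones and 3.97 to 10.3 in the 24-week ones. At 3 w.p.i. the WT libraries were very unequal, with 22.88 and 3.06 reads per window under the H3.3 antibody and 33.78 and 2.75 under that to Pu.1. The deeper library of each pair, WT replicate 1, carries no mouse number in the labels, so the mouse or mice behind it are unknown, and every H3.3 and Pu.1 value at 3 w.p.i. rests on it in part. Of the lineage markers examined, Kit, which was used to enrich the cells, and Cd34 had H3K27ac promoter sites at both times. So did the neutrophil markers Camp and Lcn2 and the B-cell marker Cd79b. A listed site is one that passed the authors' test, and its listing does not measure expression.

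Sequences of the places on which the results turn are given first, all 5′ to 3′. The 250 bases before the RefSeq start (GRCm38.p6, the assembly of mm10) are shown for the 3 members that the promoter table holds, with each CG pair in capitals. The loss of H3K27me3 described next covered these CG-rich bases at Cebpb and Cebpg. At Cebpa the lost site upstream ended before the bases shown. The next Cebpa site, where the groups overlapped, began after them. They are at chr7:35119043-35119292 on the plus strand for Cebpa, chr2:167688665-167688914 on the plus strand for Cebpb and chr7:35056567-35056816 on the minus strand for Cebpg. Cebpd and Cebpe were not matched.
Cebpa promoter: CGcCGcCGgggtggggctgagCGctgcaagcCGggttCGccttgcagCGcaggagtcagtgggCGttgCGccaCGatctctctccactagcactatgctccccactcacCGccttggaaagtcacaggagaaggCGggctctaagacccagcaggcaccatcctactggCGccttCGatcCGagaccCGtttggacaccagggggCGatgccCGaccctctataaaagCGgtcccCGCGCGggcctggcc
Cebpb promoter: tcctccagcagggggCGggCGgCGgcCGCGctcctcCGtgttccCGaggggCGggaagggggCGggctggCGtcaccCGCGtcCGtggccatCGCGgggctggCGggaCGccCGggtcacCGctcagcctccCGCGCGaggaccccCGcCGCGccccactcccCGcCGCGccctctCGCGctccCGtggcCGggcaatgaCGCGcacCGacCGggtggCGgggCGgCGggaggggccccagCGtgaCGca
Cebpg promoter: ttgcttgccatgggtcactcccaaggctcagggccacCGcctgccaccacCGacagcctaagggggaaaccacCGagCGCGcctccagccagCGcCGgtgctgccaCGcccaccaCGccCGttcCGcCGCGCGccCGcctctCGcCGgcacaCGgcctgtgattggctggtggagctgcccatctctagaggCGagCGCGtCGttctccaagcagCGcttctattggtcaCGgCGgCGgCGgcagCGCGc
The Cebpa promoter held 22 CG pairs, that of Cebpb 41 and that of Cebpg 29, against a median of 6.0 over 32851 promoters, of which 14.8%, 1.1% and 6.8%, respectively, had at least as many. Neither GAGGAA, the core of many Pu.1 sites and found on either strand in 23.3% of promoters, nor TTGCNNAA, a C/EBP core and found in 9.6%, was in any of the 3.

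For the +37 kb enhancer, 300 bases at chr7:35156176-35156475 (plus strand) are shown, with GAGGAA in capitals. They are the middle of the stretch shared by the H3K27ac sites gained there at both times, so the gain itself chose them, and they need not be the enhancer's centre.
Cebpa +37 kb enhancer: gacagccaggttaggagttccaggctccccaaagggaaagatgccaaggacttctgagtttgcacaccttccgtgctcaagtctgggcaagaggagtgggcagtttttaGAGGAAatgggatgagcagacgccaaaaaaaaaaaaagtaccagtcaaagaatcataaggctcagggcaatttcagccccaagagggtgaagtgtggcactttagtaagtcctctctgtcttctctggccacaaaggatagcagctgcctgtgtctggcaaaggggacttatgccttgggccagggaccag
These bases held 1 GAGGAA and no TTGCNNAA, on either strand, and 2 CG pairs. Of the 300 bases in the middle of each of the 193657 sites listed for H3K27ac at 24 w.p.i., 27.2% held GAGGAA and 10.4% TTGCNNAA. These matches are descriptions of letters and not of binding.

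At 3 w.p.i. the highest H3.3 and Pu.1 levels at Cebpa and Cebpe were measured on tandem repeats. The Pu.1 site 18.7 kb downstream of the Cebpb start was repetitive too, with a share of 0.643 of bases equal to the base 13 further on. At the site 41 kb downstream of the Cebpa start, 949 bases of the reference (chr7:35159951-35160899) are an uninterrupted run of 158.2 copies of a 6-base unit. At the site 20 kb downstream of the Cebpe start, 1351 bases (chr14:54691241-54692591) repeat a 41-base unit 33.0 times, with 93.9% of bases equal to the base 1 unit further on. The first 60 and 123 bases on the plus strand are shown, with the first unit in capitals.
Cebpa +41 kb repeat: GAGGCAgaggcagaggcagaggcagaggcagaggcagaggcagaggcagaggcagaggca
Cebpe +20 kb repeat: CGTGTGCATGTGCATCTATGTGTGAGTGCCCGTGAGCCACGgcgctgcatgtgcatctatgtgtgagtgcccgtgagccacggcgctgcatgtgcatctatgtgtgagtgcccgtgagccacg

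**Figure D1:**
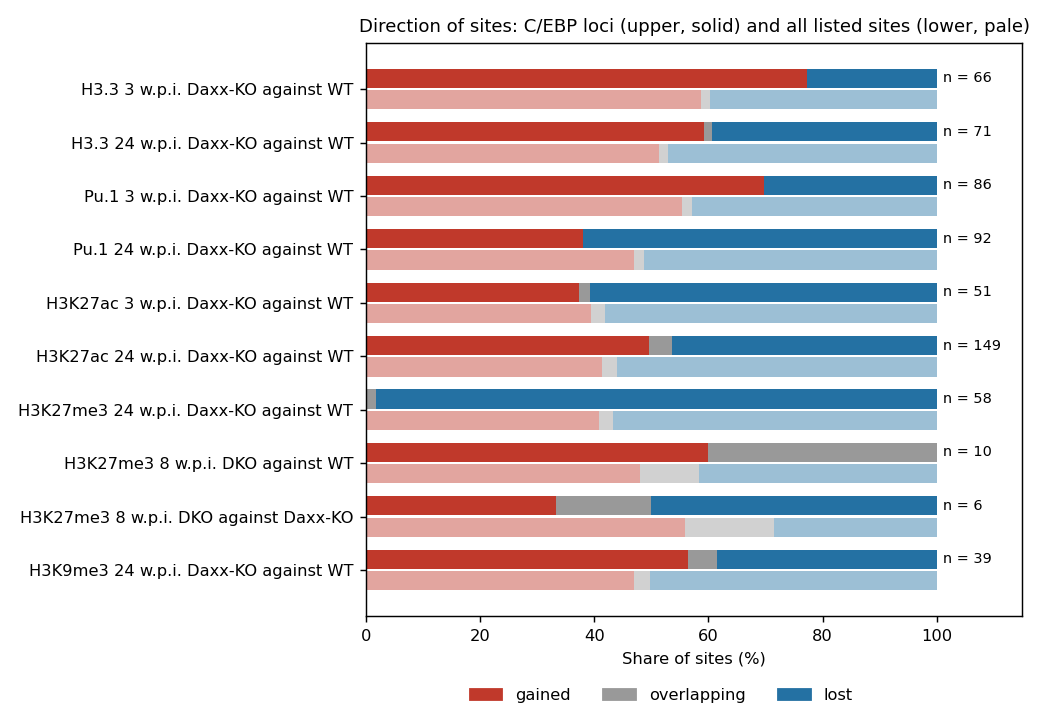
Horizontal bars give the share of sites (%) that were gained, overlapping or lost in each table, with the C/EBP loci in solid colours above all listed sites in pale colours, and n is the number of C/EBP sites. At 24 w.p.i. H3K27me3 stands apart, with 57 of 58 C/EBP sites lost and none gained. The 4 H3K9me3 tables at 3 and 8 w.p.i. hold at most 1 C/EBP site each and are not drawn.

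H3K27me3 was lower in Daxx-KO HSPCs at 24 w.p.i. throughout all 5 loci. Of 58 sites, 57 were lost (98.3%, Wilson 95% interval 90.9 to 99.7%), 1 was overlapping and none was gained, which allows a gained share of up to 6.21%. Over all listed sites of this comparison, 56.8% were lost and 40.8% gained. The median log2 ratio was -1.66 at the family and -0.81 over all listed sites. Cebpa had 24 lost sites of 25, Cebpb 16 of 16, Cebpg 9 of 9, Cebpe 8 of 8 and Cebpd 4 of 4. Intervals cover counting error only, since neighbouring sites are not independent.

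The losses covered the starts of Cebpb, Cebpd, Cebpe and Cebpg and, at Cebpa, a site just upstream of the start. At Cebpb the site over the start had 63.8 and 92.9 normalized counts in Daxx-KO and 260.5 and 394 in WT HSPCs. At Cebpe, the late granulocyte factor, the values were 68.6 and 57 against 213 and 194, and at Cebpd 195 and 137 against 314 and 569.7. All Daxx-KO values lay below all WT values at these 3 promoters, with log2 ratios of -2.05 at Cebpb, -1.68 at Cebpe and -1.40 at Cebpd.

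At the Cebpg promoter the level was 140.4 and 107 normalized counts in Daxx-KO against 187 and 439.8 in WT, a log2 ratio of -1.34. At Cebpa, which encodes the factor at the entry to granulocyte-monocyte progenitors, the site 0.7 kb upstream of the start had 177 and 152 against 236 and 297 (-0.69). The site 0.4 kb into Cebpa was the single one at which the groups overlapped, with 38.3 and 37.7 against 138 and 35.7. There 1 WT library decided the value: the log2 ratio was -1.17 with both WT libraries and 0.09 without WT replicate 1. The WT spread was wide at Cebpg and Cebpd too, where WT replicate 2, the shallower of the 2 (4.27 reads per window against 9.58), was the higher.

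**Figure D2:**
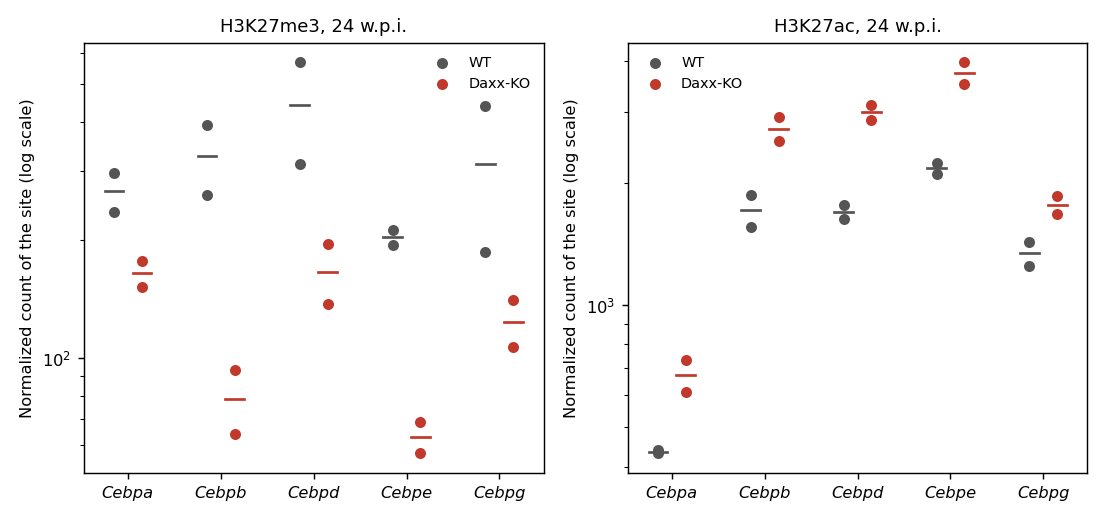
Normalized counts (log scale) of the listed site within 1 kb of each start that had the highest level, for H3K27me3 (left) and H3K27ac (right) at 24 w.p.i.; each point is 1 library and each bar the mean of 2. The Daxx-KO points lie below the WT points for H3K27me3 and above them for H3K27ac at all 5 genes.

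Away from the promoters the H3K27me3 losses at Cebpa ran from -49.9 to +52.6 kb from the start and took in its distal enhancers. At the +37 kb enhancer, the site 36.7 kb downstream had 39.9 and 44.2 normalized counts in Daxx-KO against 112 and 139.9 in WT (-1.56), and the site 35.1 kb downstream 43.9 and 58.0 against 136 and 148 (-1.47). The steepest loss at Cebpa was 21.9 kb downstream, with 5.58 and 0 against 80.3 and 25.7. At Cebpb the steepest was 4.2 kb downstream, with 0 and 1.84 against 41.1 and 31.4. Both of these were sites of low level in WT libraries. The sites of highest WT level were those over the start at Cebpb, Cebpd and Cebpe, and sites away from it at Cebpa and Cebpg.

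High GC content goes with loss in this comparison, and the C/EBP sites were GC-rich, with a median of 53.5% against 48% over all listed sites. Among the 21310 listed sites at or above that GC content, 66.9% were lost and 25.7% gained, and among sites within 1 kb of a protein-coding start 65.7% were lost and 25.4% gained. Of 2423 windows around protein-coding genes with at least as many sites as Cebpa, 89 (3.67%) had no gained site. The same share was 5.72% for windows with at least as many sites as Cebpb, 10.2% for Cebpg, 11.3% for Cebpe and 18.7% for Cebpd, so the absence of a gained site was less rare at the loci with few sites. The part of GC content in the family's losses was not tested. Kit and Cd34 moved alike, with 10 of 10 sites lost.

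Among other genes of the pathway, 73 of 118 H3K27me3 sites at 7 regulators of the family were lost and 45 gained, and 101 of 134 at 11 C/EBP target genes were lost and 32 gained. The regulators' shares, 61.9% lost and 38.1% gained, lay close to the 56.8% and 40.8% over all listed sites, and those of the targets were 75.4% and 23.9%. Spi1, which encodes Pu.1, had 12 of 12 sites lost, Gfi1, a repressor needed for neutrophil differentiation, 6 of 6, and Trib1, an adaptor for the degradation of C/EBP-alpha, 18 of 18. Irf8, a monocyte factor, had 36 of 41 sites gained, its promoter site among them, and Runx1 9 of 25. Of the targets, the neighbours Elane and Prtn3 had only lost sites, 18 and 20, and Camp had 8 gained sites of 11.

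H3K27ac at 24 w.p.i. moved both ways, and differently from locus to locus. Of 149 sites, 74 were gained (49.7%, interval 41.7 to 57.6%), 69 lost and 6 overlapping, while over all listed sites 41.3% were gained and 56% lost. Among listed sites at or above the family's median GC content of 50.9%, 52.8% were gained and 42.9% lost. Cebpb had 36 gained sites of 48 (75%), with 9 lost and 3 overlapping. Cebpg stood at the other end, with 28 of 33 lost (84.8%), most of them over its neighbour Pepd. Cebpa had 13 gained and 18 lost, Cebpd 11 and 11, and Cebpe 11 and 10. Of 966 windows of protein-coding genes with at least as many sites as Cebpb, 0.518% had as high a gained share, and of 4214 with as many as Cebpg, 0.878% had as high a lost share; both are given as a description.

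Pooled over the loci, the gained sites had the higher levels. Their median level in the higher group was 142 normalized counts, against 70.6 for the lost sites, and 12 gained and none of the lost sites reached 1000. Cebpg went the other way, with medians of 72.4 for gained and 85.6 for lost sites. Over all listed sites these medians were 56.4 and 64.5, and 4653 gained and 503 lost sites reached 1000. The H3K27ac sites named next, beyond the promoters and the enhancer, were picked for their level after their values were seen.

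At Cebpe the promoter site had 3969 and 3508 normalized counts in Daxx-KO against 2110.1 and 2240.3 in WT, a log2 ratio of 0.78. The site 4.5 kb downstream of its start had 3251 and 3019.6 against 1482 and 1709 (0.97), and the one 25.6 kb downstream, 2441 and 2414 against 1177 and 999.9 (1.16). At the Cebpd promoter the values were 3113 and 2859 against 1628 and 1769.6 (0.81). In each of these 4 the Daxx-KO libraries lay above the WT libraries by more than the libraries of a group lay apart.

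At Cebpb the largest site was 32.3 kb upstream, with 5616 and 5401 normalized counts against 3567 and 3334 (0.67). The site reaching from 0.3 kb into the gene past its end had 2910.3 and 2538 against 1865 and 1558 (0.67), and the one just upstream of the start 806 and 1032 against 675 and 599 (0.53). A lost site lay next to them, 0.8 kb upstream, with 594 and 583 against 896 and 747 (-0.48). The direction thus changed within 1 kb at the Cebpb start. The Cebpg promoter site was gained by little, with 1859.8 and 1674 against 1434 and 1251 (0.40), and its flanks were lost, with 74.9 and 58.6 against 121 and 145 on the gene side (-0.98) and 187 and 256 against 295 and 310.1 upstream (-0.45).

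At Cebpa the site 1.0 kb into the gene was gained, with 611 and 730.4 normalized counts against 440.1 and 431 (0.62). The site 0.5 kb upstream overlapped, with 384 and 369 against 695 and 338, and its log2 ratio of -0.45 turned to 0.16 without WT replicate 1. The +37 kb enhancer was gained, with 1068 and 962 against 685 and 532 (0.74), as was a site at 35.4 kb with 245 and 203 against 159.7 and 143 (0.56), whereas the flank at 39.0 kb was lost with 42.7 and 35.1 against 98.3 and 77.5 (-1.16). Gain over the enhancer and loss beside it were thus measured within 2 kb.

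**Figure D3:**
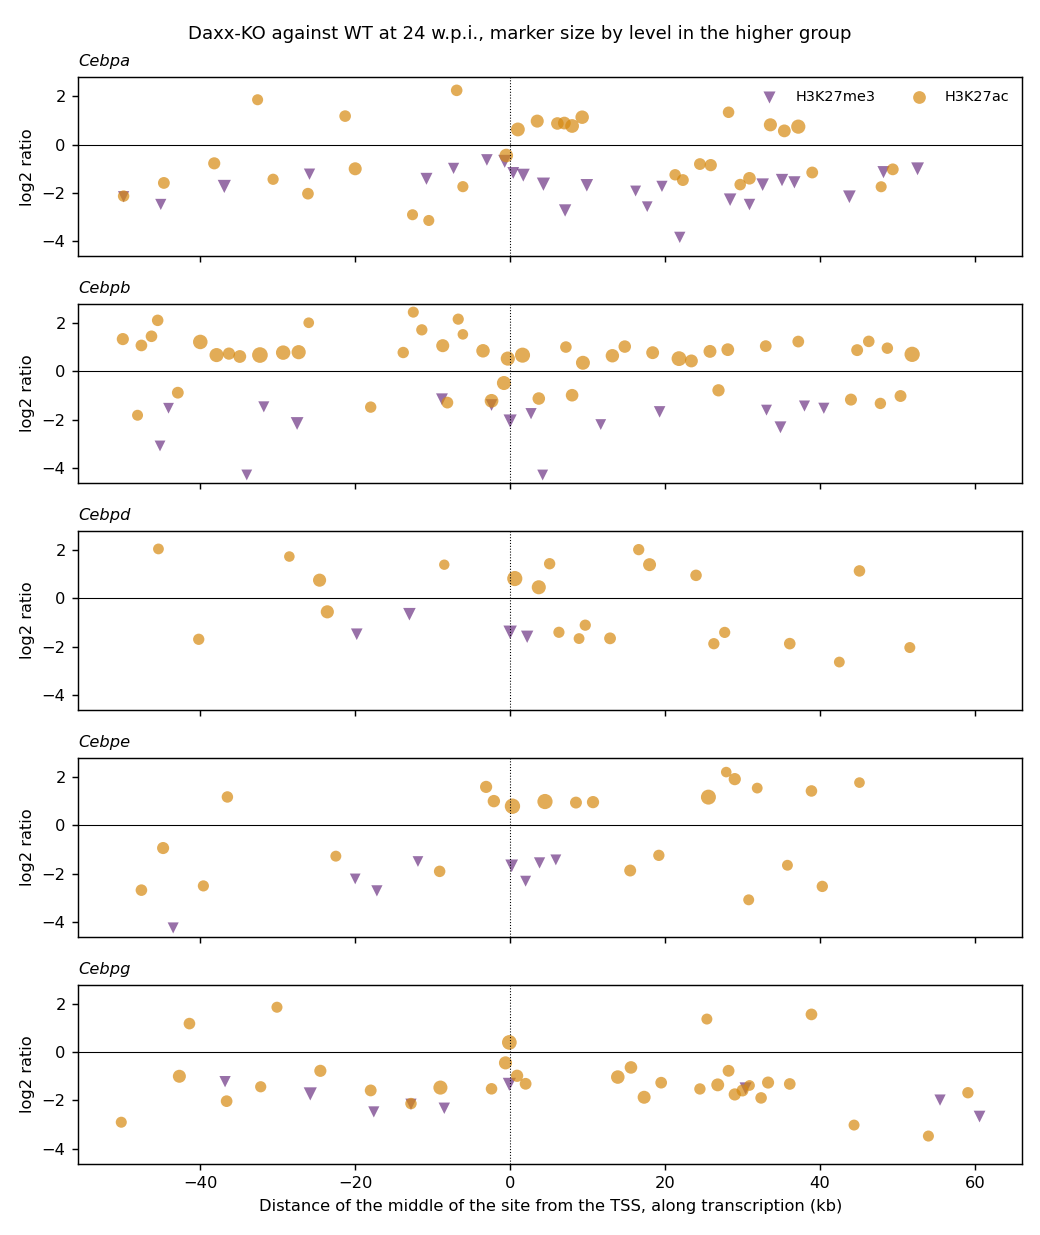
Each listed site at 24 w.p.i. is placed by the distance (kb) of its middle from the start of the gene, along transcription, and by its log2 ratio of Daxx-KO to WT averages; triangles are H3K27me3, circles H3K27ac, and larger markers have more signal in the higher group. All H3K27me3 sites lie below 0, while the 12 H3K27ac sites that reach 1000 normalized counts lie above 0, the Cebpg promoter site among them, and 28 of 33 Cebpg sites lie below.

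Markers of mature neutrophils moved with the H3K27ac gains at 24 w.p.i. All 11 neutrophil markers had promoter sites, 15 of their 16 sites were gained and none was lost, where 54% of all listed sites within 1 kb of a protein-coding start were gained and 41.1% lost, and the summed promoter level was 35547 and 32377 normalized counts in Daxx-KO and 16192 and 17244 in WT libraries. Of the defining markers none was at 0: at S100a8, a calprotectin subunit, the level was 4574 and 4628 against 2424 and 2599, and at Ly6g 426 and 420.1 against 249 and 173. For 6 B-cell markers 2 of 5 promoter sites were gained and 3 lost, with sums of 294 and 263 against 423 and 401, and Ebf1, Pax5 and Vpreb1 had no promoter site. The summed level of Kit and Cd34 was 1429 and 1670.1 against 958 and 776. The part of such cells in the C/EBP values was not tested, and in bulk libraries a change in cell make-up and a change per cell cannot be told apart.

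Of the C/EBP target genes, 185 of 313 H3K27ac sites were gained and 121 lost at 24 w.p.i., with 9 of 12 promoter sites gained. That is 59.1% gained, against 41.3% over all listed sites and 54% over those within 1 kb of a protein-coding start. Ltf, which encodes lactoferrin, had 29 gained and 5 lost sites, Elane 32 and 8, and Mpo 20 and 7. Csf1r, the M-CSF receptor, had 13 and 27, and its promoter site was lost, as was that of Csf3r, the G-CSF receptor. At the regulators 143 of 289 sites (49.5%) were gained and 132 lost, from Gfi1 with 26 and 7 to Runx1 with 36 and 56. Of the targets, Ltf, Camp, Ngp and Lcn2, are also among the neutrophil markers.

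At 3 w.p.i. H3K27ac was measured at lower depth and fewer sites were listed at the family. Of 51 sites, 19 were gained (37.3%, interval 25.3 to 51.0%), 31 lost and 1 overlapping, close to the 39.4% gained and 58.2% lost over all listed sites, while 23.4% of those at or above the family's median GC content were gained. Cebpa had 5 gained and 2 lost sites, and Cebpb 6 and 13. Cebpg had 2 and 8, Cebpe 4 and 5, and Cebpd 3 and 3. The median log2 ratio was -1.58 at the family and -1.80 over all listed sites.

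The +37 kb enhancer of Cebpa had 55.2 and 51.0 normalized counts in Daxx-KO against 20.4 and 30.9 in WT at 3 w.p.i. (1.02), so it was gained at both times. The site 33.3 kb downstream, singled out after its values were seen, had 97.9 and 91.8 against 39.8 and 40.8 (1.21), and at 24 w.p.i. the site overlapping it had 294 and 325 against 156 and 195 (0.81). At the Cebpe promoter the values at 3 w.p.i. were 51.4 and 57.8 against 14.0 and 28.7 (1.32), which was gained at 24 w.p.i. as well. These 3 places had the same direction at both times, in different mice. Of all 42 overlapping pairs of H3K27ac sites at the family, 12 were gained and 11 lost at both times. Another 13 were lost at 3 and gained at 24 w.p.i., and 3 the other way.

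At the Cebpb and Cebpd promoters, sites lost at 3 w.p.i. overlapped sites gained at 24 w.p.i. Not all of the early sites there were lost. The later Cebpb site with a log2 ratio of 0.67 also overlapped a site gained at 3 w.p.i., 1.4 kb downstream of the start (2.04). The later Cebpd site also overlapped one gained at 3 w.p.i., 2.3 kb downstream of the start (1.08). The Cebpb promoter had 29.1 and 10.2 normalized counts against 40.8 and 125 at 3 w.p.i. (-2.02) and was gained at 24 w.p.i., and the Cebpd site 0.8 kb upstream had 11.6 and 4.25 against 22.6 and 25.4 (-1.48) where the later site was gained. The Cebpg site 1.0 kb upstream had 15.5 and 59.5 against 8.6 and 13.2 (1.69), and of the later sites that overlap it the promoter site was gained (0.40) and its flank lost (-0.45). Over all listed sites within 1 kb of a protein-coding start, 75.2% were lost at 3 and 54% gained at 24 w.p.i., and the counts were low at 3 w.p.i., with a median level of 23.4 at the lost C/EBP sites. Only 2 of the 11 neutrophil markers, Camp and Lcn2, had promoter sites then, both gained, with sums of 85.3 and 94.3 against 21.5 and 23.2. The difference between the times was not tested.

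H3.3 and Pu.1 were mostly gained at the family at 3 w.p.i. For H3.3, 51 of 66 sites were gained (77.3%, interval 65.8 to 85.7%) and 15 lost, against 58.7% and 39.7% over all listed sites. For Pu.1, 60 of 86 were gained (69.8%, 59.4 to 78.5%) and 26 lost, against 55.3% and 42.8%. Cebpb had 21 of 23 H3.3 and 28 of 36 Pu.1 sites gained, and Cebpe 10 of 12 and 14 of 18. Cebpd went the other way, with 2 of 5 and 3 of 8 gained. Among all listed sites at or above the median GC content of the C/EBP sites (53.3% for H3.3 and 52.8% for Pu.1), 85.9% and 84.4% were gained. That set is not matched to the C/EBP sites, which lie on both sides of their median, and the part of GC content was not tested.

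At the Cebpb promoter H3.3 was 165 and 256 normalized counts in Daxx-KO and 84.1 and 44.5 in WT libraries (1.70), and Pu.1 82.7 and 98.1 against 33.4 and 16.0 (1.83). The Cebpg promoter had 86.1 and 33.9 against 22.4 and 20.95 for H3.3 (1.43) and 126 and 71.3 against 36.0 and 41.6 for Pu.1 (1.32). In the gene body of Cebpe, Pu.1 was 52.0 and 47.8 against 35.5 and 0 (1.44), where the value of 0 came from the library with 2.75 reads per window, in which 1 read counts as 3.23. The groups did not overlap at these promoters. Near the +37 kb enhancer Pu.1 was lost at 3 w.p.i., with 56.7 and 59.2 against 71.6 and 147 at 36.4 kb (-0.90).

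At 3 w.p.i. the largest H3.3 and Pu.1 gains at the family, by log2 ratio and by level, lay on the 6-base repeat downstream of Cebpa. H3.3 at 3 w.p.i. was 1742 and 1973 normalized counts in Daxx-KO and 43.5 and 107 in WT libraries (4.60), rank 161 by log2 ratio of 85426 gained sites. Pu.1 was 2607 and 1766 against 32.9 and 79.9 (5.25), rank 93 of 89098. H3K9me3 at 24 w.p.i., from other mice, was 5709 and 4423 against 3816 and 3664 (0.44). The site was thus high in both groups for H3K9me3 and for H3.3 and Pu.1 at 3 w.p.i. high in the Daxx-KO libraries and low in the WT libraries. For H3K9me3 at 8 w.p.i. it was lost in DKO against WT, with 0, 0 and 1.53 against 9.88, 10.3 and 9.31, and it was not listed in other comparisons. These levels were low, and the DKO libraries at 0 had 0.67 and 0.21 reads per window, in which 1 read counts as 2.17 and 3.45.

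Sites with at least 4 copies of that 6-base unit in a row, the Cebpa site among them, were mostly gained at 3 w.p.i. For H3.3 333 of 348 were gained and 14 lost, and for Pu.1 301 of 315 and 11, where 58.7% and 55.3% of all listed sites were gained. Sites with a share of at least 0.5 of bases equal to the base 1 unit further on, for any unit of up to 60 bases, were mostly gained too, 3386 of 4120 for H3.3 and 3581 of 4518 for Pu.1. At 24 w.p.i. 137 of 262 sites with the 6-base unit were gained for H3.3 and 123 of 270 for Pu.1, near the 51.3% and 46.9% over all listed sites. For H3K9me3 195 of 254 were gained, against 46.9%. H3K27me3 had 57 of 294 gained and 226 lost, against 40.8% and 56.8%. How reads that map to many places were treated is not given in the sources used here, so reads from other copies of such a unit cannot be told apart from reads of the Cebpa locus.

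The repeat downstream of Cebpe, singled out in part after its values were seen, was gained with it. H3.3 at 3 w.p.i. was 245 and 526 normalized counts against 48.4 and 105 (2.32), and Pu.1 was 565 and 478 against 86.2 and 76.7 (2.66). At 24 w.p.i. H3.3 was gained at an overlapping site, with 83.9 and 150.5 against 24.0 and 45.1 (1.73), and Pu.1 was measured in 2 overlapping sites of opposite direction. Over the repeat it was 6.82 and 6.27 against 105 and 72.6 (-3.57), and at the edge, 18.9 kb from the start, 98.2 and 35.5 against 18.7 and 15.8 (1.89).

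**Figure D4:**
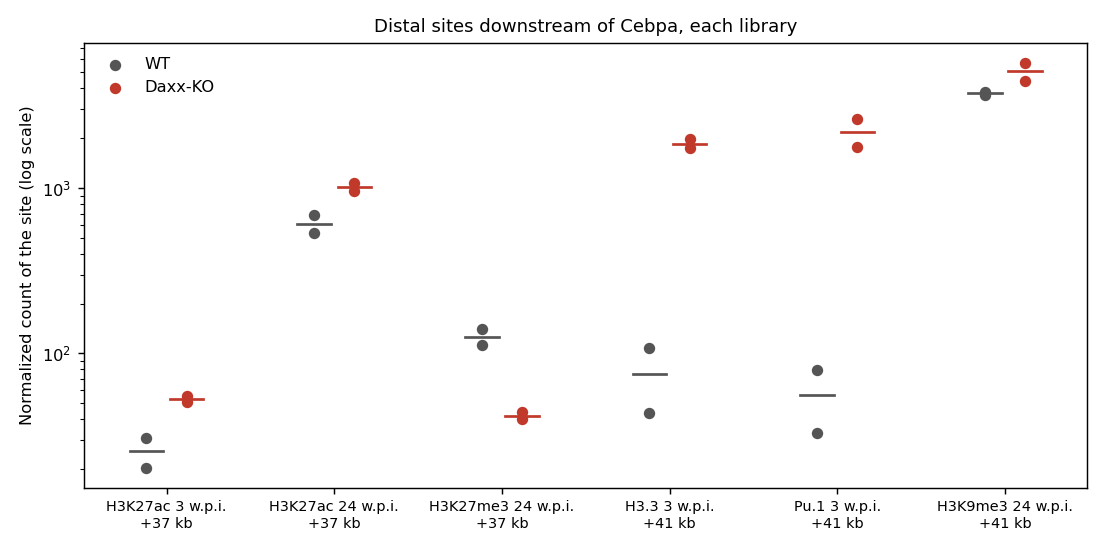
Normalized counts (log scale) of sites downstream of the Cebpa start, with each point 1 library and each bar the mean of 2. The WT and Daxx-KO libraries do not overlap at any of the 6, and the gap is widest at the +41 kb repeat for H3.3 and Pu.1 at 3 w.p.i., with 1742 or more against 107 or less.

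At 24 w.p.i. the Pu.1 balance was the reverse. Of 92 Pu.1 sites 35 were gained (38%, 28.8 to 48.3%) and 57 lost, against 46.9% and 51.3% over all listed sites, and each of the 5 loci had more lost than gained sites. Among all listed sites at or above the family's median GC content of 49.7%, 38% were gained and 58.9% lost, which is the family's own gained share. Of 71 H3.3 sites 42 were gained (59.2%, 47.5 to 69.8%), 28 lost and 1 overlapping, against 51.3% and 47%, or 48.6% and 48.4% at or above the family's median GC content. Levels at these sites were low, with a median of 67.6 normalized counts in the higher group at gained H3.3 sites, and several were listed at or near 0 in the other group. Whether the shares at 3 and 24 w.p.i. differ was not tested.

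Pu.1 was lost at 24 w.p.i. over the Cebpd start, with 2.04 and 0 normalized counts in Daxx-KO against 57.6 and 45.3 in WT libraries, and upstream of the Cebpe start, with 4.09 and 2.09 against 46.1 and 67.4. In the Cebpe gene body, where Pu.1 had been gained at 3 w.p.i., it was 0 and 2.09 against 34.5 and 40.0. Another loss was 2.6 kb downstream of the Cebpd start, where Daxx-KO was listed at 0 in both libraries and WT had 79.2 and 54.7. Gains were measured 0.8 kb upstream of the Cebpg start, with 72.3 and 79.4 against 2.88 and 47.4 (1.56), and beside the +37 kb enhancer of Cebpa, at 37.7 kb, with 27.3 and 35.5 against 4.32 and 4.21 (2.62).

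H3.3 at 24 w.p.i. was lost in the Cebpb gene, 1.1 kb from the start, with 2.21 and 0 normalized counts against 51.7 and 37.6, and over the Cebpe start, where Daxx-KO was listed at 0 in both libraries and WT had 56.3 and 31.0. At Cebpa a gain was measured 31.8 kb downstream, with 58.5 and 38.5 against a listed 0 in both WT libraries, and a loss 34.2 kb downstream, with 6.62 and 6.79 against 34.1 and 98.7. The Cebpa gain and loss both lay in the stretch before the +37 kb enhancer.

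H3K9me3 at the family was measured mainly at 24 w.p.i. Of 39 sites 22 were gained (56.4%, 41 to 70.7%), 15 lost and 2 overlapping, against 46.9% and 50.3% over all listed sites and 68.5% and 27.1% over those at or above the family's median GC content. In the Cebpd gene it was 40.8 and 156 normalized counts against 3.11 and 3.75 (4.49), and 34.8 kb downstream of Cebpa 19.1 and 62.5 against a listed 0 in both WT libraries. It was lost 33.3 kb downstream of Cebpa, with 2.55 and 2.08 against 68.4 and 56.2 (-4.26). At the Cebpb site 0.4 kb upstream the groups overlapped, with 18.5 and 106 against 21.8 and 16.9, and the log2 ratio of 1.64 became -0.06 without Daxx-KO replicate 2.

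At 3 and 8 w.p.i. H3K9me3 sites were all but absent from these loci. At 3 w.p.i. the table held 1, gained 31.9 kb downstream of the Cebpb start with 9.3 and 8.33 normalized counts against a listed 0, where 78.5% of all listed sites were gained and 21.1% lost. At 8 w.p.i. DKO against WT held 1, the lost site on the Cebpa repeat, against 48% gained and 17.7% lost over all sites. No C/EBP site was listed at 8 w.p.i. for Daxx-KO against WT (56.8% gained and 32.3% lost over all sites) or for DKO against Daxx-KO (45.5% and 24.3%).

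H3K27me3 at 8 w.p.i. was compared in DKO mice, which lack Pu.1 as well as Daxx. Against WT, 6 of 10 C/EBP sites were gained (60%, 31.3 to 83.2%), none was lost and 4 overlapped, where 48% of all listed sites were gained and 41.6% lost. Against Daxx-KO, 2 of 6 were gained (33.3%, 9.68 to 70.0%), 3 lost and 1 overlapping, where 55.9% were gained and 28.5% lost. All sites were at Cebpa, Cebpg and Cebpd, and none was listed at Cebpb or Cebpe.

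Of the 6 gains, 3 lay side by side between Cebpg and Cebpa and 3 upstream of Cebpd. At the site 32.3 kb upstream of the Cebpa start, singled out for its level after its values were seen, the DKO libraries had 41.9, 49.8 and 44.7 normalized counts and the WT libraries 27.1, 10.9 and 14.5 (1.33). Against Daxx-KO, in a table normalized separately, an overlapping site had 77.9, 68.4 and 95.5 in DKO against 24.7, 13.0 and 30.3 (1.78). Both comparisons use the same DKO libraries and both showed each DKO library above all others. Just downstream of the Cebpa start, at 2.6 kb, DKO was below Daxx-KO, with 18.8, 10.1 and 0 against 68.4, 29.4 and 25.7 (-1.99).

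The 4 sites that overlapped in DKO against WT lay at the Cebpa and Cebpd promoters and beside them, and 1 library decided them. Over the Cebpa start the DKO libraries had 83.8, 35.8 and 2.18 normalized counts and the WT libraries 23.6, 12.7 and 15.7, and over the Cebpd start 73.6, 48.9 and 6.54 against 20.1, 13.6 and 11.2. At both, DKO replicate 3 lay below all WT libraries and the other DKO libraries above them. Without DKO replicate 3, 10 of 10 sites were gained. Upstream of Cebpd, at 5.6 kb, all 3 DKO libraries were higher, with 15.9, 54.2 and 29.4 against 7.87, 1.81 and 2.24 (2.78).

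A few places carried sites of many tables. In the Cebpe gene, around 1.1 kb from its start, non-overlapping sites of 7 tables met: H3.3 at 3 w.p.i. was gained (1.46), H3K27ac gained at 3 and 24 w.p.i. (1.32 and 0.78), H3K9me3 gained at 24 w.p.i. (2.17) and H3K27me3 lost (-1.68), while Pu.1 was gained at 3 (1.44) and lost at 24 w.p.i. (-4.23). At Cebpb, 45.5 kb upstream of the start in the Tmem189 gene, 7 tables met as well. There H3K27ac at 24 w.p.i. was 80.2 and 49.8 normalized counts against 16.8 and 11.9 (2.11), H3K9me3 27.4 and 121 against 7.77 and 0 (3.94), and H3K27me3 6.38 and 0 against 37.3 and 31.4 (-3.08). Marks usually found apart, H3K27ac and H3K9me3, were thus both gained at these places in libraries of the same mice. For H3K9me3, Daxx-KO replicate 2 was the higher at both, with 121 against 27.4 at Cebpb and 46.9 against 23.0 at Cebpe. Of 31 overlapping pairs of H3K27ac and H3K9me3 sites at the family at 24 w.p.i., 10 were gained and 6 lost for both marks. Another 6 were gained for H3K27ac and lost for H3K9me3, 6 were the reverse, and 3 held a site called overlapping.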

How the data were processed

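The authors mapped the CUT&Tag reads to mm10 and compared groups with diffReps 1.55.6, per the file headers, using a negative binomial test in 600 bp windows, whose neighbouring hits were merged into sites. The labels name CASAVA 1.8.4, cutadapt 1.13, STAR 2.5.3 and bedtools; read filters are not given in the sources used here. The deposited tables give each library's normalized count per site. They also hold the authors' fold changes and p-values, which were not used, except that the deposited adjusted p-value served as a filter in 1 alternative. Of 62 libraries, 54 are in the 14 tables used. A table at 8 w.p.i. whose H3K27me3 control libraries are those of H3K9me3 was left out, and 8 DKO libraries at 24 w.p.i. were not analysed here.

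Sites were assigned to loci by GENCODE M21 genes with 50 kb flanks. Named sites were those within 1 kb of a start, those within 2 kb of the +37 kb position, per table and locus the gained and the lost site of largest log2 ratio with at least 20 normalized counts, and places where sites of 3 or more tables met, of which those of the most tables are described. Members and lists were chosen with earlier results of these data known. Alternatives were a 10 kb flank, the site's middle, a 2-fold difference, a higher count minimum, joined sites, an adjusted p under 0.05 and leaving out each library. Python 3.11.15 with numpy 2.4.6 and pandas 2.3.3 was used, and 6 functions were tested on simulated data.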

Additional observations from a re-analysis of the deposited data

Results flagged for a closer look

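At the following places every Daxx-KO library moved one way against WT at 3 w.p.i. and the opposite way at 24 w.p.i. in at least 1 site that shares 1 bp or more. Only pairs in which at least 1 site was a named site are listed, and other pairs at the family changed direction too. Values are log2 ratios, first at 3 and then at 24 w.p.i. The mice differ between the times, and the difference between the times was not tested.

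Of 42 overlapping pairs of H3K27ac sites at the family, 13 went from loss to gain and 3 from gain to loss. A further 12 were gained and 11 lost at both times. Among the pairs with a named site that are listed here, 3 of 4 H3K27ac sites lost at Cebpb at 3 w.p.i. met only sites gained at 24 w.p.i. The promoter site changed from -2.02 to 0.53 and, at a second overlapping site, 0.67. That second site also met a site gained at 3 w.p.i., 1.4 kb downstream (2.04). The site 3.2 kb downstream, at -2.71, met both a gained site (0.67) and a lost one (-1.12), so its change was not in 1 direction. The site at -26.5 kb changed from -3.01 to 0.79 and 2.01 in 2 overlapping sites, and that at -45.4 kb from -2.20 to 2.11. The Cebpd site at -0.8 kb changed from -1.48 to 0.81, and the later site also met one gained at 3 w.p.i., at 2.3 kb (1.08). The opposite order was measured at -37.3 kb from Cebpa, from 2.07 to -0.78. The Cebpg site at -1.0 kb, at 1.69, met a lost flank (-0.45) and the gained promoter site (0.40).

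Of 33 overlapping pairs of Pu.1 sites at the family, 15 went from gain to loss and 2 from loss to gain. A further 9 were gained and 7 lost at both times. Among the pairs with a named site, Pu.1 went only from gain to loss at 2 places. It changed from 1.44 to -4.23 in the Cebpe gene at 0.8 kb, and from 1.08 to -5.90 at -37.3 kb from Cebpa. At the Cebpe repeat at 20.3 kb the gain of 2.66 met 2 sites at 24 w.p.i. that differed from each other, a lost one (-3.57) over the repeat and a gained one (1.89) at its edge. Of 17 overlapping pairs of H3.3 sites, 6 went from gain to loss and 2 from loss to gain, while 6 were gained and 3 lost at both times. Those with a named site went from gain to loss at 19.1 kb from Cebpb, from 2.50 to -4.39, at -45.2 kb from Cebpb, from 1.28 to -1.52, and at 33.2 kb from Cebpg, from 1.26 to -5.57. In the 24 w.p.i. site at 19.1 kb from Cebpb, a share of 0.549 of bases equalled the base 13 further on, as in a tandem repeat.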

How the results depend on the processing

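Of 122 recomputed shares of gained C/EBP sites, 118 stayed within the interval of the reported share. The exceptions were the 10 kb flank, which gave 65.0% for H3.3 and 85.0% for Pu.1 at 3 w.p.i., the 2-fold difference, which gave 37.8% for H3K27ac at 24 w.p.i., and H3K27me3 at 8 w.p.i. in DKO against WT without DKO replicate 3, with 100%. Leaving out each library gave 60 to 100% in that comparison and 33.3 to 50.0% for DKO against Daxx-KO. It gave 37.3 to 39.2% and 49.7 to 52.3% for H3K27ac at 3 and 24 w.p.i., 0 to 1.72% for H3K27me3 at 24 w.p.i. and 56.4 to 61.5% for H3K9me3 at 24 w.p.i. The shares for H3.3 and Pu.1 stayed at 77.3 and 69.8% at 3 w.p.i. and at 59.2 and 38.0% at 24 w.p.i. Leaving out a library cannot undo a gained or lost call, since every remaining library keeps its side, so only overlapping sites could change. The family had 0 overlapping sites for H3.3 at 3 w.p.i. and for Pu.1 at both times, so these shares could not move. They do not measure how far the 3 w.p.i. results rest on WT replicate 1. Of the recomputed site counts per locus, 55 of 494 gained and 52 of 494 lost counts moved by over 1.5 times, 80 of these under the 10 kb flank, which holds fewer sites by construction: 48 sites for H3K27ac and 23 of 58 for H3K27me3 at 24 w.p.i. A minimum of 20 normalized counts left 30 of 51 H3K27ac sites at 3 w.p.i., 12 of them gained, and a 2-fold difference left 98 at 24 w.p.i., with 37 gained and 57 lost.

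Of 673 recomputed log2 ratios of named sites 3 reversed, all on leaving out 1 library: the Cebpa site at -0.5 kb for H3K27ac (0.16) and that at 0.4 kb for H3K27me3 (0.088), both without WT replicate 1, and the Cebpb site at -0.4 kb for H3K9me3 (-0.060), without Daxx-KO replicate 2. On leaving out each library in turn these ratios ran from -0.88 to 0.16, from -1.84 to 0.088 and from -0.060 to 2.40, respectively. At sites called gained or lost, leaving out a library could not reverse the ratio. No paired analysis was possible because no test was made. The labels give mouse numbers that differ between the groups, except that WT replicate 1 for H3.3 and Pu.1 at 3 w.p.i. has none. Daxx-KO against WT and DKO against Daxx-KO for H3K9me3 at 8 w.p.i. held no C/EBP site and gave no share. Depth limits the 8 w.p.i. values most, at 0.2 to 3.29 reads per window, and a place without a listed site has no value rather than an unchanged one.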
